A study of Homo sapiens with 4 samples.

Results

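The genes described here were 9 members of the NRF2 pathway and of iron storage, taken as a named set from the 46660 gene identifiers of the RNA-seq table: *NFE2L2*, *KEAP1*, *NQO1*, *HMOX1*, *GCLM*, *TXNRD1*, *SRXN1*, *FTL* and *FTH1*. All 9 were found by Entrez identifier, and all 9 passed the filter on low counts in both cell lines. *NFE2L2* encodes NRF2, a transcription factor that KEAP1 holds in the cytoplasm and delivers to the proteasome. Oxidants and electrophiles modify KEAP1, NRF2 then accumulates in the nucleus, pairs with a small MAF protein and binds antioxidant response elements (AREs) in genes of detoxification, glutathione and thioredoxin metabolism and iron handling. Ferritin, built from heavy (*FTH1*) and light (*FTL*) chains, stores iron, and its mRNAs are in addition held back from translation by iron regulatory proteins that bind a hairpin near the 5′ end.

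The libraries came from U87MG and U251MG, established human glioblastoma cell lines. In each line, 1 library was made from cells infected with the empty pGreen lentivirus (control, titled shControl) and 1 from cells infected with lentivirus against *FLI1* (shFLI1). *FLI1* encodes an ETS family transcription factor, and the study listed 2 shRNAs against it. All 4 cultures were infected with polybrene, selected with puromycin and harvested as mixed stable cells without clone picking, so each library is a mean over a mixed population, in which a lower share of cells with an RNA and less RNA per cell cannot be told apart. With 1 library per arm in a line there was no spread between replicates, and the 95% intervals below cover the counting error of the reads only. Since PCR reads are not independent molecules, these intervals are too narrow as errors of a cell line's response.

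Library totals were 12229780 estimated counts in U87MG control, 21250153 in U87MG shFLI1, 18108612 in U251MG control and 28891055 in U251MG shFLI1. The 10 most abundant genes took 18.6% of the counts in U87MG control and between 10.7% and 13.2% in the other 3 libraries. Levels are given as counts scaled to library size (CPM) after TMM correction, which sets libraries on a common scale through the bulk of their genes, and changes as log2 of shFLI1 over control. *FLI1* itself was at 9.34 and 2.34 CPM in control and shFLI1 of U87MG and at 12.1 and 3.71 CPM in those of U251MG. The knockdown left 25.0% of the control level in U87MG cells and 30.6% in U251MG cells, the direction the labels give. Among glioma and astroglial markers, *VIM* lay between 2986 and 7005 CPM, *CD44* between 1044 and 1741 CPM and *SOX2* between 117 and 174 CPM, while *S100B* stayed at or below 0.367 CPM. *GFAP* was at 634 and 1587 CPM in control and shFLI1 of U87MG and at 20.4 and 93.8 CPM in those of U251MG. Of 8 markers of other cell types, 5 were in the table, none reached the filter on low counts, and the highest was *PTPRC* at 0.167 CPM.

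To show the letters through which NRF2 and the iron regulatory proteins are known to act, the windows around the start of the members in RefSeq (GRCh38.p14, 250 bases before and 50 after the start) were searched. The ARE core was searched as TGACNNNGC on both strands, and the letters of an iron responsive element, a C, then 5 bases of any kind, then CAGTGN, on the sense strand of the 50 transcribed bases. The table held 10 windows for 7 members, and *HMOX1* and *FTH1* had no entry. The ARE core occurred in 4 windows, of *KEAP1*, *GCLM* and *TXNRD1*, against 13.3% of all 35116 windows. The loop pattern occurred in *FTL*, against 1.67% of all windows. The windows of *GCLM*, *TXNRD1* and *KEAP1* below are shown because the same core, read on the opposite strand, lies close to a start site of each, and the *FTL* stretch, which lies in its 5′ untranslated region, because it carries the loop pattern. Capitals mark the matched letters, and each sequence is written 5′ to 3′ on the strand of its gene.
GCLM (chr1:93909436-93909484, minus strand): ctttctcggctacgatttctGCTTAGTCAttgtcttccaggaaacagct
TXNRD1 (chr12:104286910-104286958, plus strand): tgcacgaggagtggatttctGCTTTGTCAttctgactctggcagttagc
KEAP1 (chr19:10502774-10502822, minus strand): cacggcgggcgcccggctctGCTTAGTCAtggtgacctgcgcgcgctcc
FTL (chr19:48965335-48965358, plus strand): ctcttgCTTCAACAGTGTttggac
The match began 34 bases before the start in *GCLM*, 102 before a downstream start of *TXNRD1* and 31 before a start of *KEAP1*. These are letter matches and not binding sites, and nothing in the RNA-seq data measured binding. The windows of *NFE2L2*, *NQO1*, *SRXN1* and *FTL* held no match to the core, which says only that these letters are not in those windows.

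After knockdown the members differed between the cell lines. In U87MG, 8 of the 9 were lower in shFLI1 than in control by more than the counting error, and *HMOX1*, the inducible heme oxygenase, was lower than the others, at 29.1% of control. In U251MG, *NQO1*, *TXNRD1* and *FTL* were higher by more than the counting error, *HMOX1* and *FTH1* were lower, and the remaining 4 lay within it. The median log2 change of the 9 was -0.48 in U87MG and 0.03 in U251MG, beside 0.06 over 17355 genes and 0.04 over 18222 genes tested. Past 2-fold, 1 member was called lower in U87MG, where 4.19% of all tested genes were called lower and 7.21% higher, and 0 members were called in U251MG, where 4% were called lower and 4.17% higher. Outside the counting interval alone, the background was 23.3% lower and 26.7% higher in U87MG, and 23.1% lower and 24.6% higher in U251MG. For genes that reached 500 counts in either library, as every member did, 33.2% were lower and 34.6% higher in U87MG, and 32.5% lower and 34.3% higher in U251MG. *NQO1*, *TXNRD1*, *FTL* and *FTH1* also reached 5000 counts in each line. At that depth 49.8% of genes were lower and 37.4% higher in U87MG, and 31.9% lower and 53.5% higher in U251MG.

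**Figure D1:**
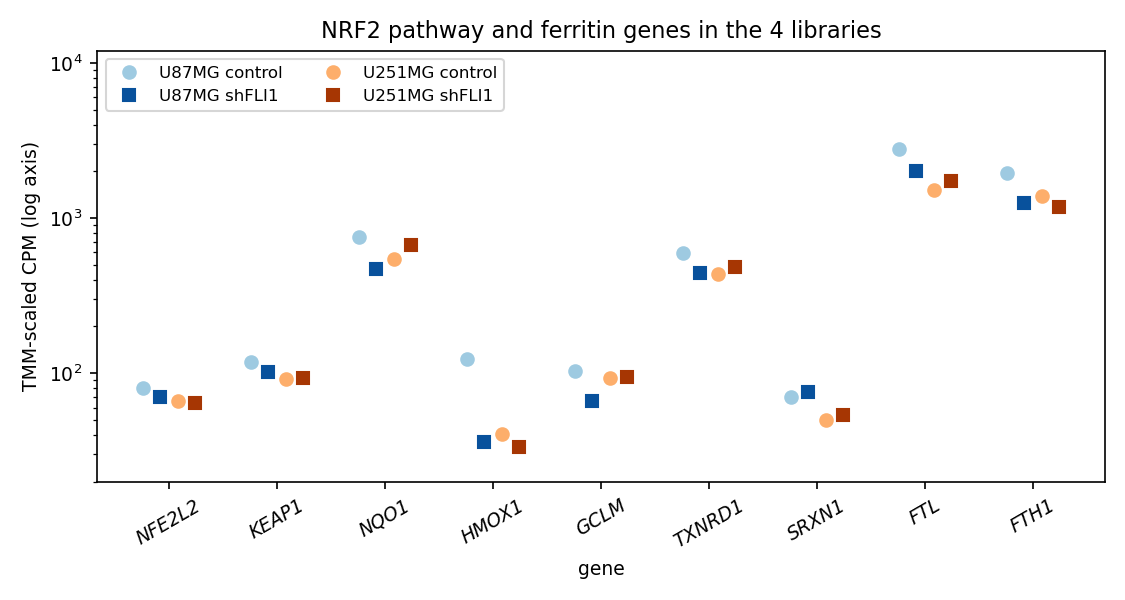
TMM-scaled CPM (log axis) of the 9 genes in the 4 libraries, with circles for control, squares for shFLI1, blue for U87MG and orange for U251MG, 1 point per library and no error bars. For 8 of the 9 genes the highest point is U87MG control, and *HMOX1* at 123 CPM in that library stands apart from 33.3 to 40.4 CPM in the others.

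The sensor pair came first in the pathway and moved least in U87MG apart from *SRXN1*. *NFE2L2* (Entrez gene 4780, chr2:177230308-177264727 of GRCh38, minus strand) was at 80.2 CPM in U87MG control, 70.3 in U87MG shFLI1, 65.9 in U251MG control and 63.8 in U251MG shFLI1. Its level was higher in both U87MG libraries than in both U251MG libraries, and the log2 change was -0.19 (95% interval -0.31 to -0.07) in U87MG and -0.05 (-0.15 to 0.06) in U251MG. *KEAP1* (Entrez gene 9817, chr19:10486125-10503356, minus strand), the adaptor that brings NRF2 to a cullin ubiquitin ligase, was at 118 and 102 CPM in control and shFLI1 of U87MG and at 91.3 and 92.7 CPM in those of U251MG. It changed by -0.21 (-0.30 to -0.11) on the log2 scale in U87MG and by 0.02 (-0.07 to 0.11) in U251MG. Scaled to total counts instead, the 2 changes in U87MG were -0.03 and -0.05. NRF2 is controlled mainly through its protein level, which was not measured here.

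*HMOX1* (Entrez gene 3162, chr22:35381096-35394207, plus strand) opens heme into biliverdin, carbon monoxide and free iron, and is repressed by BACH1 besides being induced by NRF2. It held 1409 counts in U87MG control, 796 in U87MG shFLI1, 721 in U251MG control and 998 in U251MG shFLI1, which gave 123, 35.8, 40.4 and 33.3 CPM. The high library was U87MG control alone, and the other 3 lay close together. The log2 change was -1.78 (-1.91 to -1.66) in U87MG and -0.28 (-0.42 to -0.14) in U251MG, the latter 82.4% of control. Under the alternatives of scaling, prior count, unit and thinning, the U87MG value stayed between -1.82 and -1.60. The response of U251MG minus that of U87MG lay between 1.31 and 1.69 on the log2 scale.

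*NQO1* (Entrez gene 1728, chr16:69709401-69726560, minus strand) encodes a quinone reductase and is a standard readout of NRF2 activity. It was at 757 CPM in U87MG control, 470 in U87MG shFLI1, 548 in U251MG control and 669 in U251MG shFLI1. The lines crossed, U87MG being the higher in control and U251MG the higher in shFLI1. The log2 change was -0.69 (-0.73 to -0.64) in U87MG and 0.29 (0.25 to 0.32) in U251MG, and the difference between these responses was 0.97 (0.92 to 1.03).

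*GCLM* (Entrez gene 2730, chr1:93885199-93909430, minus strand), the modifier subunit of the enzyme that makes the first step of glutathione synthesis, was at 103, 66.1, 92.9 and 95.1 CPM in the same order. U87MG shFLI1 was the low library and the other 3 lay near each other. The log2 change was -0.64 (-0.76 to -0.53) in U87MG and 0.03 (-0.05 to 0.12) in U251MG. *TXNRD1* (Entrez gene 7296, chr12:104215779-104350307, plus strand), the cytosolic thioredoxin reductase, was at 594 and 440 CPM in control and shFLI1 of U87MG and at 433 and 487 CPM in those of U251MG. It changed by -0.43 (-0.48 to -0.39) in U87MG and by 0.17 (0.13 to 0.21) in U251MG on the log2 scale, again with opposite signs. *EID3*, a gene inside the span of *TXNRD1* on the same strand, held between 28 and 76 counts beside at least 6799 of *TXNRD1*.

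*SRXN1* (Entrez gene 140809, chr20:646615-653200, minus strand), which reduces overoxidised peroxiredoxins, was the 1 member not lower in U87MG. It was at 70.6, 75.4, 49.8 and 53.7 CPM in U87MG control, U87MG shFLI1, U251MG control and U251MG shFLI1. Here the line and not the arm separated the libraries, and the log2 changes were 0.09 (-0.03 to 0.22) in U87MG and 0.11 (-0.01 to 0.23) in U251MG. The difference between the 2 responses was 0.01 (-0.16 to 0.18), an interval that still allows small differences in either direction.

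Both ferritin chains were lower after knockdown in U87MG, and they parted in U251MG. *FTL* (Entrez gene 2512, chr19:48965309-48966879, plus strand), whose 5′ end carries the loop pattern printed above, was at 2793 CPM in U87MG control, 2001 in U87MG shFLI1, 1508 in U251MG control and 1736 in U251MG shFLI1. It changed by -0.48 (-0.50 to -0.46) in U87MG and by 0.20 (0.18 to 0.22) in U251MG on the log2 scale. *FTH1* (Entrez gene 2495, chr11:61964285-61967634, minus strand), the chain with ferroxidase activity, was at 1959, 1246, 1383 and 1183 CPM in the same order. Its log2 change was -0.65 (-0.68 to -0.63) in U87MG and -0.23 (-0.25 to -0.20) in U251MG, so that shFLI1 was lower than control in both lines.

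Together the 2 ferritin genes took 0.445% of all counts in U87MG control (exact binomial interval 0.441% to 0.449%), 0.340% (0.337% to 0.342%) in U87MG shFLI1, 0.285% (0.282% to 0.287%) in U251MG control and 0.303% (0.301% to 0.305%) in U251MG shFLI1. U87MG control was the high library again. Counts of *FTL* per count of *FTH1* were 1.43, 1.61, 1.09 and 1.47 in that order, and this ratio was higher in shFLI1 by 0.17 (0.14 to 0.20) in U87MG and by 0.43 (0.40 to 0.46) in U251MG on the log2 scale, intervals of counting error that needed no scaling between libraries. The light chain therefore gained on the heavy chain in both lines, although *FTL* itself was lower in one and higher in the other. Among all genes of a library, *FTL* ranked 16th, 19th, 35th and 27th by counts and *FTH1* 27th, 48th, 40th and 49th. Ferritin genes have many processed pseudogenes, 47 in RefSeq by symbol, of which the table held *FTH1P3* alone with 3 or 4 counts a library, so that reads of the other copies may have been counted to the parent genes. *BEST1*, which overlaps *FTH1* on the opposite strand, held between 23 and 72 counts.

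**Figure D2:**
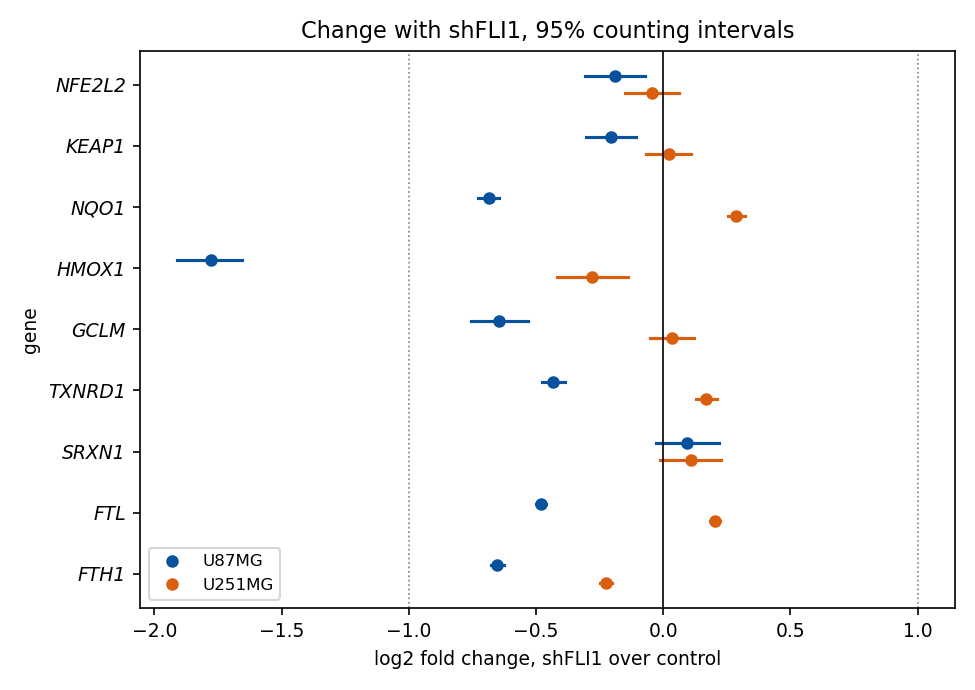
Log2 fold change of shFLI1 over control for the 9 genes, in U87MG (blue) and U251MG (orange), with 95% counting intervals as bars, a solid line at no change and dotted lines at 2-fold. All blue points except *SRXN1* lie left of 0, with *HMOX1* past the 2-fold line at -1.78, while the orange points lie between -0.28 and 0.29.

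*NQO1*, *TXNRD1* and *FTL* were lower in U87MG and higher in U251MG outside both intervals, a pattern held by 3.9% of the 16384 genes tested in both lines. Each of the 3 had over 5000 counts, and of the 612 genes that reached 5000 counts in each line 21.9% held it. *HMOX1* and *FTH1* were lower in both, as were 12.2% of the 16384 genes. For this pattern no share at matched depth was computed. The difference between the responses left out 0 for 7 members and included it for *NFE2L2*, at 0.14 (-0.01 to 0.30), and for *SRXN1*. The share of all genes that left out 0 was not computed, and counting intervals narrow as counts rise, so these 7 are a description only. With 4 libraries in 4 groups no residual error remains for an interaction test, so the difference between the lines has no test beyond counting error.

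Read between the lines rather than between the arms, the members stood higher in U87MG control than in U251MG control, all 9 outside the counting interval, where 21.9% of the 16384 genes tested in both lines were. That share covers genes of all depths, and counting intervals narrow as counts rise. No share at matched depth was computed for these interval counts between the lines. The log2 ratio of U251MG control over U87MG control was -1.60 (interval -1.74 to -1.47) for *HMOX1*, -0.89 for *FTL* and -0.50 for both *FTH1* and *SRXN1*, with *GCLM* the nearest at -0.15 (-0.26 to -0.04). Between the shFLI1 libraries, 5 members were lower in U251MG outside the interval, *NQO1* (0.51), *GCLM* (0.52) and *TXNRD1* (0.14) were higher, and *HMOX1* at -0.10 (-0.24 to 0.03) was within it. Of all 16384 genes, 27.5% were lower and 36.3% higher in this comparison. Of the 9 members, 7 were closer together between the lines in shFLI1 than in control, beside 50.8% of all genes. The highest of the 4 libraries was U87MG control for 8 of 9 members, against 21.6% of the 16384 genes. This share, too, covers genes of all depths, and none at matched depth was computed. The U87MG control library enters both the lower values of U87MG after knockdown and the gap between the control libraries, so these are not separate observations. It was also the shallowest library and the one with the largest share of counts in its 10 most abundant genes. Leaving the 10 genes most abundant over the 4 libraries out of the scaling moved *HMOX1* in U87MG from -1.77892 to -1.77914. TMM already trims extreme genes, so the 8 of 9 members below the interval at that setting are not a separate result. When the U87MG shFLI1 library was thinned to the depth of its control, 8 of 9 members were below the interval, as were 27.9% of all genes. Thinning left the U87MG control library unchanged, so the part of that library in the pattern was not tested. Scaled to total counts, 6 members were below the interval and *SRXN1* above it. The median of all genes then moved from 0.06 to 0.22, and 14% of all genes were below.

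The 2 lines served as replicates of the knockdown for a test over both. None of the 9 members passed edgeR's quasi-likelihood test at an adjusted P of 0.05 (0 called). Of 16649 genes, 0.919% were called higher and 2.14% lower. In edgeR 1 member had an unadjusted P below 0.05, as did 2751 of the 16649 genes. *HMOX1* came nearest, with a log2 change of -1.05, an unadjusted P of 0.00724 and an adjusted P of 0.117, lower in 2 of 2 lines. *FTH1* had a log2 change of -0.45 with an edgeR adjusted P of 0.332, and *GCLM* one of -0.32 with 0.430. The remaining 6 lay between -0.21 and 0.09 with edgeR adjusted P between 0.699 and 0.817. The same fit gave *FLI1* a log2 change of -1.85 and an adjusted P of 0.00698 by edgeR. DESeq2 likewise called 0 members, with 1 at an unadjusted P below 0.05, as had 1409 of the 16649 genes. In DESeq2, however, *FTH1* came nearest (adjusted P of 0.213) and *HMOX1* had an adjusted P of 0.768. The fit had 1 residual degree of freedom, and with no filter beyond 1 count in any library *HMOX1* passed at an edgeR adjusted P of 2.59e-07. That setting tested 43576 identifiers and called 1303, against 509 of 16649 in the main setting. The P of *HMOX1* thus depended on the filter and is not stronger support.

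For the difference between the lines over both arms, *SRXN1* was the member that passed edgeR's quasi-likelihood test, with a log2 change of -0.57 in U251MG over U87MG and an adjusted P of 0.0223, where 8.25% of the 16649 genes were called lower and 10.4% higher in U251MG. It missed the threshold when scaled to total counts (adjusted P of 0.0616) and in DESeq2 (0.0619). *HMOX1* was at -0.93 with an edgeR adjusted P of 0.0646, and *FTL* at -0.62 with 0.114 in edgeR and 0.0235 in DESeq2. *NQO1* was at -0.05 with an edgeR adjusted P of 0.917, which averages the opposite differences of the 2 arms given above.

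Levels between genes were compared per length, as the authors' FPKM summed over the RNAs of a gene within 1 library. The order *FTL*, *FTH1*, *NQO1*, *TXNRD1* held at the top in all 4 libraries, and *GCLM* was the lowest member in all 4, at 17.3 to 23.4 FPKM. *FTL* lay between 2914 and 4271 FPKM and *FTH1* between 1305 and 1942 FPKM, *NQO1* between 219 and 317 and *TXNRD1* between 127 and 205. In U87MG control the value of *TXNRD1* includes 40.7 FPKM of a single RNA, URS00019CF067, with 4.24 estimated counts. *HMOX1* was the fifth in U87MG control at 88.9 FPKM and the eighth in U87MG shFLI1 at 28.7 FPKM, between *NFE2L2* at 34.1 and *GCLM* at 17.3. In U251MG it was the sixth at 30.9 FPKM in control and the seventh at 26.8 FPKM in shFLI1. With 1 library a group, neighbours in this order, such as *HMOX1* and *NFE2L2* in U251MG control (30.9 and 29.8 FPKM), cannot be separated from the spread between cultures.

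Single RNAs of a gene carry estimated splits of shared reads, and their changes differed within a gene. All 4 *NQO1* RNAs with at least 100 counts in 1 library were lower in U87MG, with log2 changes from -0.66 to -0.80. In U251MG they lay on both sides of 0, with NM_000903 at 0.33 (0.29 to 0.36) and NM_001025433 at -0.20 (-0.40 to 0.01). The leading *TXNRD1* RNA, NM_182729, held 63.0% of the gene's counts in U87MG control and changed by -0.31 (-0.36 to -0.25) there. NM_182743 of the same gene was lower still, going from 620 to 460 estimated counts in U87MG against 652 and 1462 in U251MG, a log2 change of -1.38 (-1.57 to -1.21) in U87MG and 0.42 (0.28 to 0.55) in U251MG. NM_182742 changed by -1.16 in U87MG and -0.10 in U251MG.

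In *KEAP1*, the leading NM_012289 changed by -0.04 (-0.16 to 0.07) in U87MG and NM_203500 by -0.69 (-0.91 to -0.47), so that the lower gene total in U87MG came with the second RNA. In *GCLM*, NM_002061 changed by -0.78 in U87MG, while the minor URS00009B440E went from 17.7 to 91.7 estimated counts there and from 35.3 to 116 in U251MG. A minor *FTL* RNA, URS00008BFFF5, was listed at 0 counts in U87MG control, where 3 counts would be 0.262 CPM, and at 179, 216 and 464 estimated counts in the other 3 libraries. It held less than 1% of the gene's counts but 269 to 649 FPKM in those 3 libraries, and by FPKM, log2(value + 1), the change of *FTL* in U87MG was -0.24. *HMOX1* and *SRXN1* had 1 RNA each in the table.

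**Figure D3:**
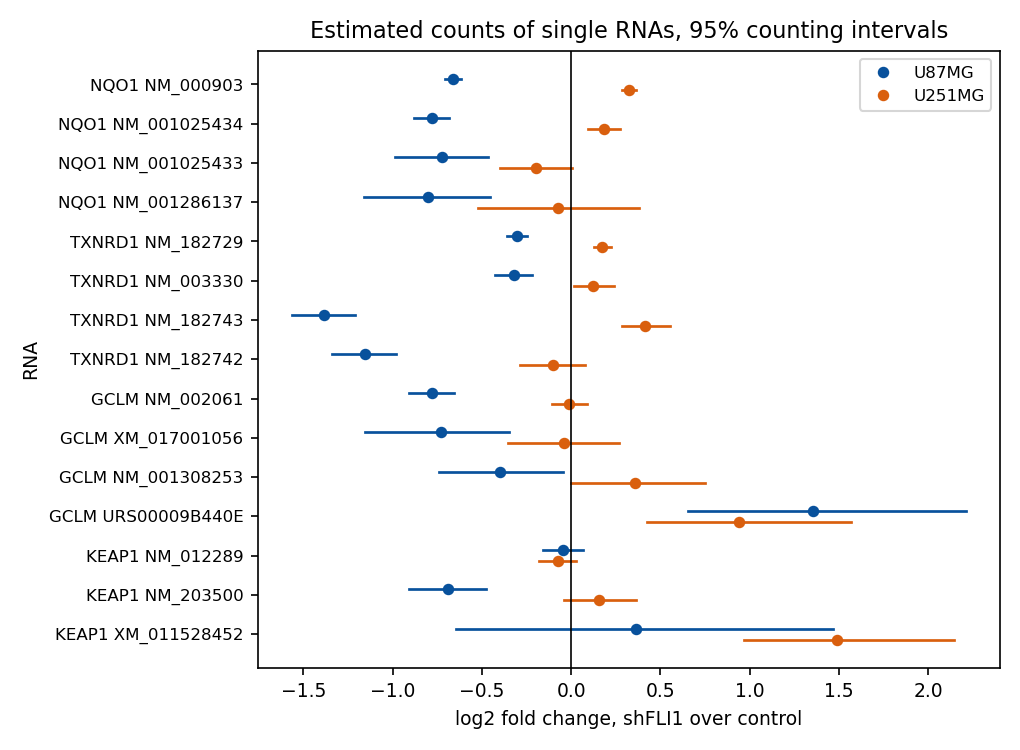
Log2 fold change of shFLI1 over control for single RNAs of *NQO1*, *TXNRD1*, *GCLM* and *KEAP1* with at least 100 estimated counts in 1 library, in U87MG (blue) and U251MG (orange), with 95% counting intervals as bars. The 4 *NQO1* RNAs lie together at -0.66 to -0.80 in U87MG, while those of *TXNRD1* spread from -0.31 to -1.38.

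Beyond the members, 36 other NRF2 targets were listed from textbook knowledge, with earlier results of these data known. The list leaned the same way in U87MG. Of these 36, 31 were below the counting interval in U87MG and 1 above it, with a median log2 change of -0.46. Of all genes tested in U87MG, 23.3% were below and 26.7% above. Among those with at least 500 counts in 1 library, 33.2% were below and 34.6% above. In U251MG, 9 of 35 were below and 17 above, with a median of 0.08, beside 23.1% below and 24.6% above over all genes tested. These all-gene shares stand beside the lists that follow as well. The highest library was U87MG control for 26 of 35 (74.3%), against 21.6% of the 16384 genes tested in both lines. That share covers genes of all depths. The same U87MG control library enters the values of the members and of this list, so the list is not separate support. When scaled to total counts, 22 of 36 were below and 2 above in U87MG, where 14% of all genes were below and 40.3% above.

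Of the 36 other listed targets, 6 were called more than 2-fold lower in U87MG, as were 4.19% of all genes tested there. *AKR1C1*, an aldo-keto reductase, was at 46.5, 11.1, 5.39 and 4.07 CPM in U87MG control, U87MG shFLI1, U251MG control and U251MG shFLI1, a log2 change of -2.05 in U87MG and -0.39 in U251MG (edgeR adjusted P of 0.0855 over both). The others, named after their values were seen, were *ABCC2* (-1.54), *OSGIN1* (-1.39), *AKR1C2* (-1.33), *AKR1C3* (-1.21) and *CBR3* (-1.02), all log2 changes in U87MG. The *AKR1C* genes are close paralogs whose reads can be split between copies, so they may not be separate counts. The other aldo-keto reductases of the list, *AKR1B1* and *AKR1B10*, also named after their values were seen, were not called, at -0.65 (-0.72 to -0.57) and 0.42 (-0.83 to 1.98). *ME1*, also named after its value was seen, was called higher in U87MG, from 5 to 58 counts.

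In the shared test 2 of 35 other targets passed, both lower, and both were lower in each line. Over all 16649 genes of that test, 2.14% were called lower and 0.919% higher. These 2 shares also stand beside the counts that passed the shared test in the lists that follow. *BLVRB*, which encodes biliverdin reductase B, was at 70.6 and 38.1 CPM in control and shFLI1 of U87MG and at 48.2 and 29.1 CPM in those of U251MG. Its shared log2 change was -0.82 with an edgeR adjusted P of 0.0210. *ABCC3*, an export pump for conjugates, was at 76.2, 42.7, 129 and 83.0 CPM in the same order, with a shared log2 change of -0.75 and an edgeR adjusted P of 0.0272. By FPKM it went from 30.9 to 25.1 in U251MG.

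Among the other listed targets, *TKT* and *SLC7A11* were named after their values were seen, as was *TFRC* of the iron list. *TKT*, which encodes transketolase, was at 2790, 1459, 1345 and 2013 CPM in the order of libraries used above, lower after knockdown in U87MG and higher in U251MG. *SLC7A11*, the cystine carrier, was at 123 CPM in both U87MG libraries and at 66.8 and 129 CPM in U251MG control and shFLI1.

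**Figure D4:**
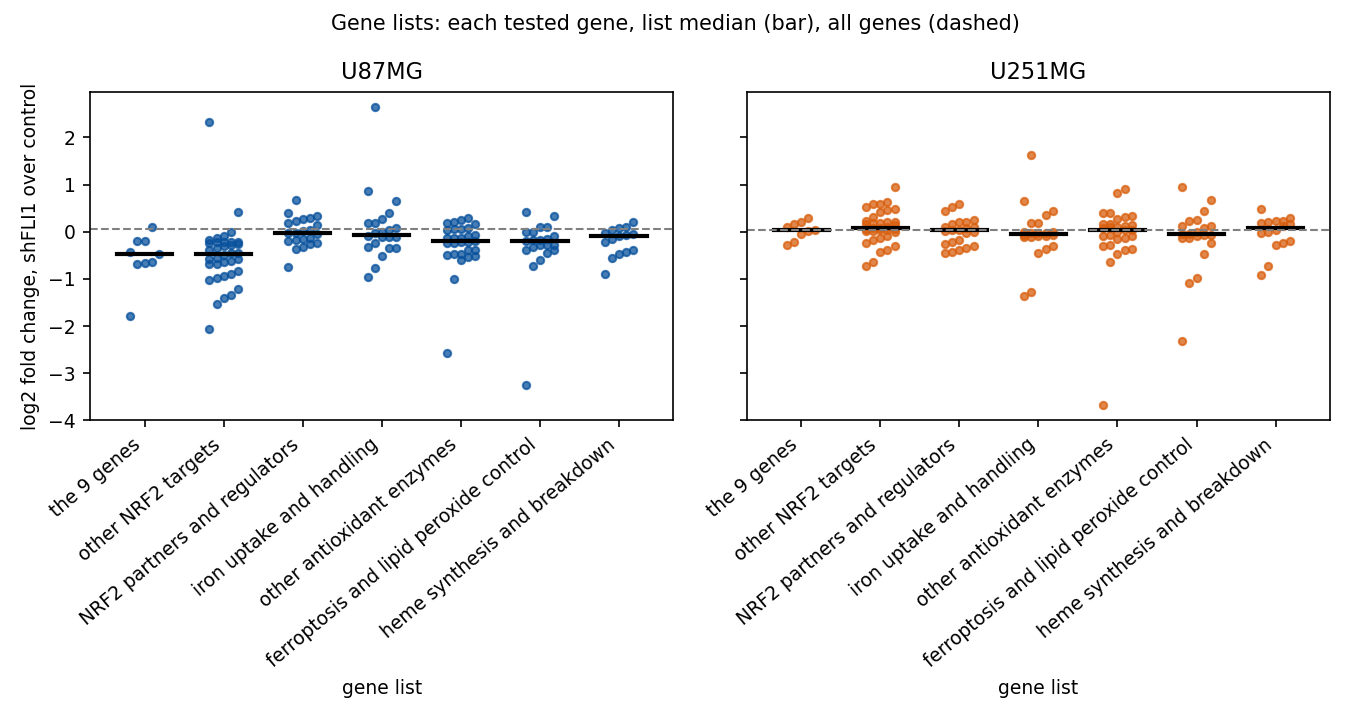
Log2 fold change of shFLI1 over control of every tested gene in 7 gene lists, for U87MG (left) and U251MG (right), with the list median as a black bar and the median of all tested genes as a dashed line. In U87MG the medians of the 9 genes (-0.48) and of the other NRF2 targets (-0.46) lie lowest, and in U251MG all 7 medians lie between -0.05 and 0.08.

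The partners and regulators of NRF2 (small MAF proteins, BACH repressors, kinases and ubiquitin ligases) lay on both sides of 0. In U87MG, 7 of 22 were below the interval and 8 above (median -0.02), in U251MG 7 of 23 were below and 7 above (median 0.03), and 0 of 22 passed edgeR's shared test. The 3 with the greatest shared log2 changes among well-counted genes were *BACH2* (0.64, edgeR adjusted P of 0.374), *GSK3B* (0.45, adjusted P of 0.138) and *MAFK* (-0.38, adjusted P of 0.219). *GSK3B*, a kinase that marks NRF2 for degradation apart from KEAP1, was at 53.2 and 70.2 CPM in control and shFLI1 of U87MG and at 64.6 and 93.7 CPM in those of U251MG.

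Iron uptake and handling held 22 tested genes, of which 9 were below and 7 above the interval in U87MG (median -0.06) and 7 below and 5 above in U251MG (median -0.05). In the shared test 1 passed higher and 1 lower. *ACO1*, cytosolic aconitase, which without its iron-sulfur cluster becomes the iron regulatory protein that binds ferritin mRNA, rose in both lines, from 41.8 to 75.8 CPM in U87MG and from 19.97 to 61.6 CPM in U251MG. Its shared log2 change was 1.22 with an edgeR adjusted P of 0.0153. By the authors' FPKM *ACO1* was at 32.5 and 33.4 in control and shFLI1 of U87MG and at 12.9 and 19.5 in those of U251MG, so the rise in U87MG rests on the counts. *SLC25A28*, a mitochondrial iron importer, went from 33.2 to 19.4 CPM and from 55.1 to 21.3 CPM, with a shared log2 change of -1.10 and an edgeR adjusted P of 0.0159. *HEPH*, a ferroxidase of iron export, went from 4.72 to 30.1 CPM in U87MG, held 9 and 4 counts in U251MG and did not pass (edgeR adjusted P of 0.197). *TFRC*, the transferrin receptor, was at 534 and 708 CPM in U87MG and at 335 and 528 CPM in U251MG, with an edgeR adjusted P of 0.181.

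Among 29 other antioxidant genes, 15 were below and 3 above the interval in U87MG (median -0.20), and 9 below and 10 above in U251MG (median 0.04). The shared test called 2, both lower. *TXNIP*, an inhibitor of thioredoxin that is itself induced by glucose, went from 81.0 to 13.6 CPM in U87MG and from 237 to 18.3 CPM in U251MG, with a shared log2 change of -3.17 and an edgeR adjusted P of 0.000444. *SESN2*, a stress-induced sestrin, changed by -0.84 with an edgeR adjusted P of 0.0341. *TXNRD3* was at 0.56 with an adjusted P of 0.362 in edgeR.

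The ferroptosis list (21 tested) had 13 below and 2 above the interval in U87MG (median -0.20) and 7 below and 6 above in U251MG (median -0.04), with 2 lower in the shared test. *CHAC1*, which degrades glutathione, was at 43.1 and 26.0 CPM in control and shFLI1 of U87MG and at 25.5 and 11.9 CPM in those of U251MG, a shared log2 change of -0.92 with an edgeR adjusted P of 0.0222. *ALOXE3* also passed (edgeR adjusted P of 0.0269) but held 34 counts or fewer in every library. *SLC3A2*, the partner chain of the cystine carrier, was at -0.54 with an adjusted P of 0.114 in edgeR.

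Heme synthesis and breakdown, tested for 15 genes in U87MG and 16 in U251MG, had 6 below and 0 above the interval in U87MG (median -0.10) and 4 below and 6 above in U251MG (median 0.08), and *BLVRB* was the 1 gene that passed the shared test. *SLC48A1*, a heme transporter, was at -0.41 with an edgeR adjusted P of 0.219, and *FECH*, which inserts iron into heme, at 0.29 with 0.490.

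The genes most like *HMOX1*, the member with the greatest shared change, were sought over the 4 libraries among 9692 genes by the distance between centred log2 CPM profiles. *DDIT4* was the nearest (distance of 0.36 log2 units), followed by *SAMD11* (0.43) and *TGFBR3* (0.44). *DDIT4* changed by -1.45 in U87MG and -0.03 in U251MG, *SAMD11* by -1.35 and -0.15, and *TGFBR3* by -1.21 and -0.37, all on the log2 scale, so that U87MG control was set apart in each. A likeness over 4 libraries is a description of these libraries only.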

How the data were processed

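Total RNA of 4 cultures was made into mRNA libraries (the labels and the study's methods name different kits), sequenced, aligned by the authors to GRCh38.p13 with HISAT2 and quantified with StringTie. The deposited table holds 1 estimated count per RNA and library, not normalized, from a tool not given in the sources used here, and the authors' FPKM, which corrects for transcript length and sequencing depth. Shared reads are divided between transcripts and near-identical genes in such counts. A further 10 value columns (TPM and averages) were not used, nor were 31346 circular RNAs.

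Estimated counts of 185042 linear RNAs were summed per gene identifier (46660, of which 24411 Entrez identifiers, 23775 with a symbol) and rounded. Samples were grouped by the labels. Counts were TMM-scaled over the 4 libraries, and log2 fold changes used a prior count of 2. Within a line, genes with at least 10 counts in 1 library were called past 2-fold where the 95% Clopper-Pearson interval left out 0, without a P-value. The difference between lines used normal intervals of the 4 counts. The shared effect of shFLI1 and the line effect came from edgeR 4.0.16 (R 4.3.3) quasi-likelihood tests with line and arm as terms, filterByExpr and Benjamini-Hochberg adjustment over all genes at 0.05. The methods of the study name DESeq2, which was run here (version 1.42.0) as an alternative, along with other scalings, filters, prior counts, thresholds, FPKM with pseudocounts of 1 and 0.1, thinned libraries, single RNAs and added pseudogene counts. FPKM served for levels between genes within a library. Scripts (Python 3.11.15) were tested on simulated counts.

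The 9 genes and the gene lists were chosen with earlier results of these data known, so no P-value was adjusted over a list and no set test was run. Named were the members, *FLI1*, the genes overlapping a member or of ferritin pseudogenes with counts, for each list the 3 genes with the greatest shared change past the shared test (completed to 3 from genes with at least 100 counts in 1 library), and the 3 genes nearest to *HMOX1*. Gene positions are those of the Ensembl canonical transcript (GRCh38). A result on 1 listed gene is not reported here.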

Additional observations from a re-analysis of the deposited data

Results flagged for a closer look

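For 3 genes the single pair of libraries of each line moved in opposite directions after knockdown, outside the counting interval of both. Lower in U87MG and higher in U251MG in this way were 3.9% of the 16384 genes tested in both lines. Among the 612 genes that reached 5000 counts in each line, as these 3 did, the share was 21.9%. *NQO1* had a log2 change of -0.69 in U87MG and 0.29 in U251MG, *TXNRD1* of -0.43 and 0.17, and *FTL* of -0.48 and 0.20. The difference between the lines was not tested, since 1 library per arm leaves no error for an interaction.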

How the results depend on the processing

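No value of the 9 genes that lay outside its counting interval changed direction. Over the per-line alternatives of the 9 genes and *FLI1*, 54 of 180 values moved beyond their counting interval and 126 did not. Over the shared and line tests of the 9 genes, 136 of 144 kept their side of the threshold, 5 passed newly and 3 were lost. In U87MG the changes of *NQO1* ranged from -0.75 to -0.52, of *GCLM* from -0.78 to -0.30, of *TXNRD1* from -0.60 to -0.27, of *FTL* from -0.54 to -0.24 and of *NFE2L2* from -0.25 to -0.00. In U251MG *NFE2L2* (-0.06 to 0.10), *KEAP1* (-0.08 to 0.10) and *GCLM* (-0.01 to 0.18) lay on both sides of 0.

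Genes called in U87MG (1979) and U251MG (1488) became 555 and 400 with at least 100 counts, 3529 and 2810 at 1.5-fold, and 831 and 538 by FPKM, log2(value + 1), by which *FLI1* changed by -1.14 and -1.17. Identifiers with a symbol alone, an alternative added after the data were seen, gave 1285 and 885. The split in U87MG was 1252 higher and 727 lower, 1709 and 571 when scaled to total counts, 909 and 778 when thinned and 683 and 602 with symbols alone. In U251MG it was 760 and 728, 590 and 726 when thinned and 370 and 515 with symbols alone.

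The shared test called 509 genes, 1303 with at least 1 count in any library, 417 in DESeq2, and 0 in edgeR without the cell line as a block (725 at an unadjusted P below 0.05). The line test called 3100 genes, 1812 in DESeq2 and 531 without the arm as a term, where *SRXN1* had an edgeR adjusted P of 0.106. *HMOX1* passed the line test in edgeR with at least 1 count in any library (adjusted P of 1.69e-05) or at least 100 in every library (0.0477), as did *FTL* under the former (0.0103). The shared test pairs shFLI1 with control within a cell line, and no other pairing could be tried, since each line had 1 library per arm. Leaving out a library would leave 1 line without a comparison and was not run.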
